A study of Mus musculus with 21 samples.

Results

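AP-1 is a family of paired transcription factors, and its subunit genes *Fos*, *Fosb*, *Fosl1*, *Fosl2*, *Jun*, *Junb*, *Jund* and *Atf3* are described here in stromal cells of the mouse colon. The 8 genes were chosen by symbol from the 31053 genes of a single-cell count matrix, and each symbol matched 1 gene. Their chromatin was read from 4 lists of ATAC-seq peaks, regions of open DNA, over each gene body with 10 kb on both sides.

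All mice were C57BL/6. The single-cell library held gp38+CD90+ colon cells of wild-type female mice of 12 weeks on 2% DSS (dextran sulfate sodium, which injures the colon lining), taken at D3. For ATAC-seq, male mice of 12 weeks gave gp38+ cells without CD45, CD31 or Epcam on their surface, sorted into MRISC, CD34 SP, CD138 (CD34-CD138+) and Myofibroblast. The labels give these mice no genotype and no treatment. They do not say how many mice gave the cells, and do not list the antibodies that define MRISC, the Map3k2-regulated intestinal stromal cells. Each population had 2 libraries but 1 deposited list of all its peaks, so their replicates cannot be compared, and how deeply they were read is unknown. The 12 bulk colon RNA samples of the series, from wild-type and Map3k2-/- mice on water or DSS, were not analysed here.

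AP-1 binds DNA as a dimer. Proteins of the Fos family must pair with a Jun protein, while Jun proteins can also pair with each other or with ATF proteins such as *Atf3*. *Fos*, *Fosb*, *Jun*, *Junb* and *Atf3* are immediate early genes, switched on within minutes by growth factors, injury or stress with no need for new protein, often through serum response factor at a DNA element called the CArG box. Such genes are also known to rise while tissue is digested into single cells, and all samples used here were digested, with no intact tissue beside them. Transcripts made in the animal and transcripts made during digestion cannot be told apart here.

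The following stretches lie inside peaks at the AP-1 genes and show the elements discussed below. They were read from the mouse genome GRCm38 (mm10), run 5′ to 3′ on the strand of the gene, and avoid exons, except that the *Jund* stretch overlaps an annotated exon. Capitals in the *Fos* and *Fosb* stretches and in the *Fosl2* stretch mark CArG boxes, and the capitals at the end of the *Fos* upstream stretch mark its TATAAA box. Capitals in the others mark TGANTCA, with N for any base, or TGACGTCA, the related letters that CREB and ATF proteins prefer. AP-1 prefers C or G as the N, and each TGANTCA word marked here has C or G.

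Fos upstream (chr12:85473571-85473870, + strand): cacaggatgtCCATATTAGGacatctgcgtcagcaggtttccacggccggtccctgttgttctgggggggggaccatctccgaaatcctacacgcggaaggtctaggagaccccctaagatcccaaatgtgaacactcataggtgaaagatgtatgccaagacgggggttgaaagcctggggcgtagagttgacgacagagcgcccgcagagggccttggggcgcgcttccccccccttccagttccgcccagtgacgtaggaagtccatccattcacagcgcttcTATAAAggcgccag
Fosb upstream (chr7:19310138-19310337, - strand): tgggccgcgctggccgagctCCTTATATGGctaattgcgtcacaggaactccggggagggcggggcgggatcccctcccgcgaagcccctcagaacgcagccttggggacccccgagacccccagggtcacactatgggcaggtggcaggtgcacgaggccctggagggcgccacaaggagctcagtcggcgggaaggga
Fos downstream (chr12:85486054-85486183, + strand): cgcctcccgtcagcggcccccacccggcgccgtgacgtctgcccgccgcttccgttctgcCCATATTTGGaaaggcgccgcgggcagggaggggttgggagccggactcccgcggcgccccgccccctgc
Fosl2 intron (chr5:32142997-32143106, + strand): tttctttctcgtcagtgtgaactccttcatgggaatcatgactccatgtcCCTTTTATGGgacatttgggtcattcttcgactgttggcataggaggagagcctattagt
Junb upstream (chr8:84985636-84985772, - strand): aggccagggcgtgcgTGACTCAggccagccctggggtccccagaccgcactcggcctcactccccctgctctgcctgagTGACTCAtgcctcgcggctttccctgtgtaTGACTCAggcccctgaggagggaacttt
Atf3 intron (chr1:191182735-191182841, - strand): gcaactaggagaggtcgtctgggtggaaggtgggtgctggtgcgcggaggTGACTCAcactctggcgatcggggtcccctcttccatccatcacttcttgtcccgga
Fosl1 intron (chr19:5448805-5448911, + strand): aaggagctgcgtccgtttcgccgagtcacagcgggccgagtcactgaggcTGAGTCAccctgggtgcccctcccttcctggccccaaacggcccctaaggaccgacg
Jund upstream (chr8:70698725-70698752, + strand): cccacccccaTGACGTCAacccacaatg

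After filtering, the library held 11376 cells, and the median cell had 6052 UMIs from 2288 genes. A UMI is 1 counted RNA molecule, read here at its 3′ end, so levels of different genes were not divided by gene length. Levels are in CPM, the UMIs of a gene scaled to a fixed total of UMIs over the pooled cells, with exact 95% Poisson intervals. Shares of cells carry exact 95% Clopper-Pearson intervals, and both kinds of interval cover counting error only. With 1 library, cells are not replicates and no p-value was made from them. RNA floating free in the droplets was estimated at 10.2% of the UMIs of stromal cells, with 4.86% to 13.2% over the 4 marker genes of other cells used for it (*Car1*, *Epcam*, *Igkc* and *Jchain*). The sort marker genes *Pdpn* (gp38) and *Thy1* (CD90) were found in all 8 stromal clusters, at 111 to 399 CPM and 42.3 to 189 CPM.

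Together the 8 genes held 712066 UMIs, which is 0.977% of all UMIs or 9765 CPM (9742 to 9788). *Fos*, *Jun*, *Junb* and *Jund* made up 91.3% of them. *Fos*, which encodes the founding partner of Jun, was the highest at 2808 CPM (2795 to 2820) and ranked 39 among all genes. *Junb* and *Jun*, which encode its Jun partners, followed at 2337 (2326 to 2348) and 2265 CPM (2254 to 2276). *Jund*, which encodes the Jun protein that resting cells are known to make steadily, stood at 1501 CPM (1492 to 1510). These 4 genes do not overlap in level, and each ranked among the 124 most abundant genes.

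The other members were lower. *Atf3*, a stress-induced gene whose protein can repress or activate as a dimer, had 390.0 CPM (385 to 395). *Fosb*, a close relative of *Fos*, had 307 CPM (303 to 311), and *Fosl2*, which encodes the Fra-2 protein, had 154 CPM (151 to 157). *Fosl1*, which encodes Fra-1, had 250 UMIs in all, a level of 3.43 CPM (3.02 to 3.88) and rank 10690. Among 19534 genes with a UMI, the members thus ranged from the most abundant to the middle ranks, and no neighbouring pair in their order had overlapping intervals.

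*Jun* had a UMI in 97.1% of cells, *Jund* in 96.9%, *Junb* in 94.8% and *Fos* in 94.0%, *Fosl2* in 53.4%, *Atf3* in 51.6% and *Fosl1* in 1.89%, and *Fosb* in 50.2% of stromal cells. No cell type known to lack these genes was at hand, so the free RNA of empty droplets served as the background. That RNA was itself rich in AP-1 transcripts, at 11086 CPM for the 8 genes against 9765 in kept cells. *Atf3* had 762 CPM in empty droplets against 390.0 in cells, and *Fos* 3196 against 2808. *Junb*, *Jun* and *Fosb* were also higher in empty droplets, while *Jund* (1231 against 1501), *Fosl2* and *Fosl1* were lower. Free RNA alone would put a *Fos* UMI into 83.4% of stromal cells, a *Junb* UMI into 79.6%, a *Jun* UMI into 77.5% and a *Jund* UMI into 52.8%. Detection of these genes in a cell therefore said little, and their levels are used below. The gap was wider for *Fosl2* (9.30% from free RNA against 53.4% seen in stromal cells) and *Fosb* (20.7% against 50.2%), and narrower for *Atf3* (37.8% against 51.6%). For *Fosl1* it was 0.194% against 1.92%.

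Cells differed widely in their AP-1 content. The 8 genes took a median of 0.723% of a cell's UMIs, with 0.145% at the 5th percentile of cells and 2.65% at the 95th. Of 11023 stromal cells, 1318 (12.0%) gave over 2% of their UMIs to AP-1 genes, and 283 (2.57%) lay at or below the 0.113% that free RNA alone would give. The low end of the range is therefore close to background, while the high end is far above it. Most cells had UMIs of several members at once: 77.7% had at least 5 of the 8, 65 cells had all 8 and 6 cells had none.

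Cells were grouped by Leiden clustering with the AP-1 genes, other immediate early genes and heat shock genes left out, so that these genes did not shape the groups. Clusters took a name only from markers. Cluster 1 (2855 cells) was lamina propria fibroblast-like, cluster 2 (2066) inflamed fibroblast-like, cluster 3 (1113) myofibroblast and smooth muscle-like and cluster 4 (886) CD34+CD81+ fibroblast-like. Cluster 7 (89) was mesothelial-like and cluster 8 (80) crypt-top Pdgfra-high fibroblast-like. Cluster 0 (3456 cells, led by *Cxcl13*, *Fgf12* and *Mgp*) and cluster 5 (478 cells, led by *Ptx3*, *Ptn* and *Ctla2a*, with *Gdf10* and *Pi16* among its leading genes) stayed unnamed. Cluster 5 had 6 of the 11 CD34+CD81+ fibroblast markers at least 2-fold above the other cells, as many as cluster 4. It also had 4 markers each of lymphoid attracting Cd34 fibroblasts and of inflamed fibroblasts. The 11 CD34+CD81+ markers summed to 9141 CPM in cluster 5, 9356 in cluster 4 and 10616 in cluster 7. Cluster 6 (296 cells) carried immune markers that the sort should have removed, and clusters 9 and 10 held under 50 cells, so 8 clusters were used as stromal.

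The summed AP-1 level differed 3.22-fold over these clusters. It was highest in cluster 5 at 20159 CPM (20009 to 20311) and in the CD34+CD81+ fibroblast-like cluster 4 at 17724 (17606 to 17843), and lowest in cluster 0 at 6261 (6226 to 6296). The mesothelial-like cluster 7 (13940.3 CPM) and the myofibroblast and smooth muscle-like cluster 3 (12669) lay between. Cluster 8 (9626), the inflamed fibroblast-like cluster 2 (9252) and the lamina propria fibroblast-like cluster 1 (9048) were lower. The name of cluster 2 does not mark it as the cluster with the most inflammation RNA: the 10 inflamed fibroblast markers summed to 1591 CPM there, 3626 in cluster 5, 2179 in cluster 4 and 1721 in cluster 7. Clusters 5 and 4 thus stood above every other cluster. Cell by cell, clusters 5 and 4 were again highest and cluster 0 lowest: the median share of AP-1 UMIs was 1.91% in cluster 5, 1.54% in cluster 4 and 0.468% in cluster 0, and 47.3%, 36.8% and 3.44% of their cells were over 2%. Cluster 7 came close to cluster 4 in its cell median, at 1.51%, with 28.1% of its 89 cells over 2%. Cluster 8, above clusters 2 and 1 in the pooled level, was below both in its cell median, at 0.653% against 0.735% and 0.685%. The ratio was 3.10 with each cell thinned to 3000 UMIs. When all variable genes were used for clustering, a cluster of 1353 cells was highest, at 18768 CPM, the lowest had 6870, and the ratio was 2.73. The highest joined 870 cells of cluster 4 with 478 of cluster 5. The lowest, of 2473 cells, joined 1305 cells of cluster 2 with 1099 of cluster 0. Another 2287 cells of cluster 0 lay in a cluster at 7249 CPM. These 2 parts of cluster 0 had 4754 and 7127 CPM, so cluster 0 did not stay 1 group.

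**Figure D1:**
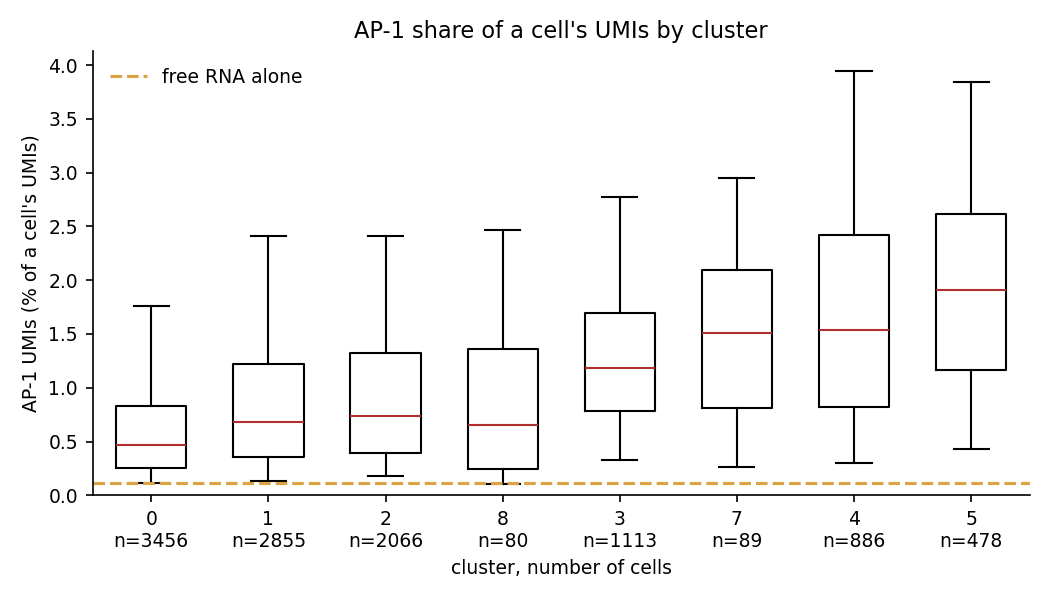
Share of a cell's UMIs that came from the 8 AP-1 genes (%, vertical axis) in the 8 stromal clusters, ordered by their pooled level, with the number of cells under each. Boxes span the 25th to 75th percentile of cells with the median in red, whiskers the 5th to 95th, and the dashed line is the 0.113% expected from free RNA alone. The median is 0.468% in cluster 0 and 1.91% in cluster 5.

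In the Fos family, *Fos* and *Fosb* had the same order of clusters. *Fos* had 6661 CPM in cluster 5, 5596 in cluster 4, 5043 in cluster 7, 3671 in cluster 3, 2987 in cluster 8, 2685 in cluster 2, 2370 in cluster 1 and 1672 in cluster 0, a ratio of 3.98 from highest to lowest. None of its 8 counting intervals overlapped. *Fosb* had 818 CPM in cluster 5, 647 in cluster 4, 577 in cluster 7, 439 in cluster 3, 399 in cluster 8, 289 in cluster 2, 284 in cluster 1 and 123 in cluster 0. Its ratio was 6.64, wider than that of *Fos*, and clusters 1 and 2 did not differ beyond counting error, nor did clusters 4 and 7 or clusters 3 and 8.

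*Fosl2* and *Fosl1* had another order. *Fosl2* was highest in the myofibroblast and smooth muscle-like cluster 3 at 229 CPM (218 to 240) and the inflamed fibroblast-like cluster 2 at 210 (203 to 218). It stood at 148 in cluster 0, 133 in cluster 4, 131 in cluster 5 and 105 in cluster 1, and lowest at 95.5 in cluster 8, with cluster 7 between the last 2. Cluster 5, the top cluster for *Fos*, was thus in the middle for *Fosl2*. *Fosl1* too was highest in cluster 3 at 7.97 CPM (6.08 to 10.3) and cluster 2 at 7.85 (6.48 to 9.43), against 1.03 (0.628 to 1.59) in cluster 0 and 1.58 (1.07 to 2.26) in cluster 1. Clusters 2 and 3 did not differ from each other in either gene beyond counting error. The *Fosl1* levels rest on 60 UMIs in cluster 3 and 114 in cluster 2, and those of clusters 4, 5, 7 and 8 on 10 or fewer each.

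In the Jun family, *Jun* had the same top 4 clusters as *Fos*, in the same order, while *Junb* was lower in cluster 7. *Junb* had 4632 CPM in cluster 5, 4319 in cluster 4, 3493 in cluster 3, 2645 in cluster 8, 2391 in cluster 7, 2330.1 in cluster 1, 2133 in cluster 2 and 1297 in cluster 0. *Jun* varied less, from 3708 CPM in cluster 5 and 3146 in cluster 4 to 1712 in cluster 0, a ratio of 2.17. *Jund* varied least, from 2401 CPM in cluster 4 and 2283 in cluster 5 to 1186 in cluster 0, a ratio of 2.02. Cluster 0 was thus the lowest for all of *Jun*, *Junb* and *Jund*, and for *Jund* its interval overlapped that of cluster 8.

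*Atf3* varied most. It had 1924 CPM (1878 to 1972) in cluster 5, 1480.2 (1446 to 1515) in cluster 4 and 1210 (1135 to 1288) in cluster 7, then 437 in cluster 3, 223 in clusters 1 and 2, 208 in cluster 8 and 121 (116 to 126) in cluster 0. The ratio from cluster 5 to cluster 0 was 15.9. Free RNA equals 64.1% of the *Atf3* level in cluster 0 and 4.03% of that in cluster 5. With free RNA subtracted the ratio was 42.6, so the low end of this ratio is poorly measured. A UMI of *Atf3* was present in 82.4% of cells of cluster 5 and 35.3% of cells of cluster 0.

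**Figure D2:**
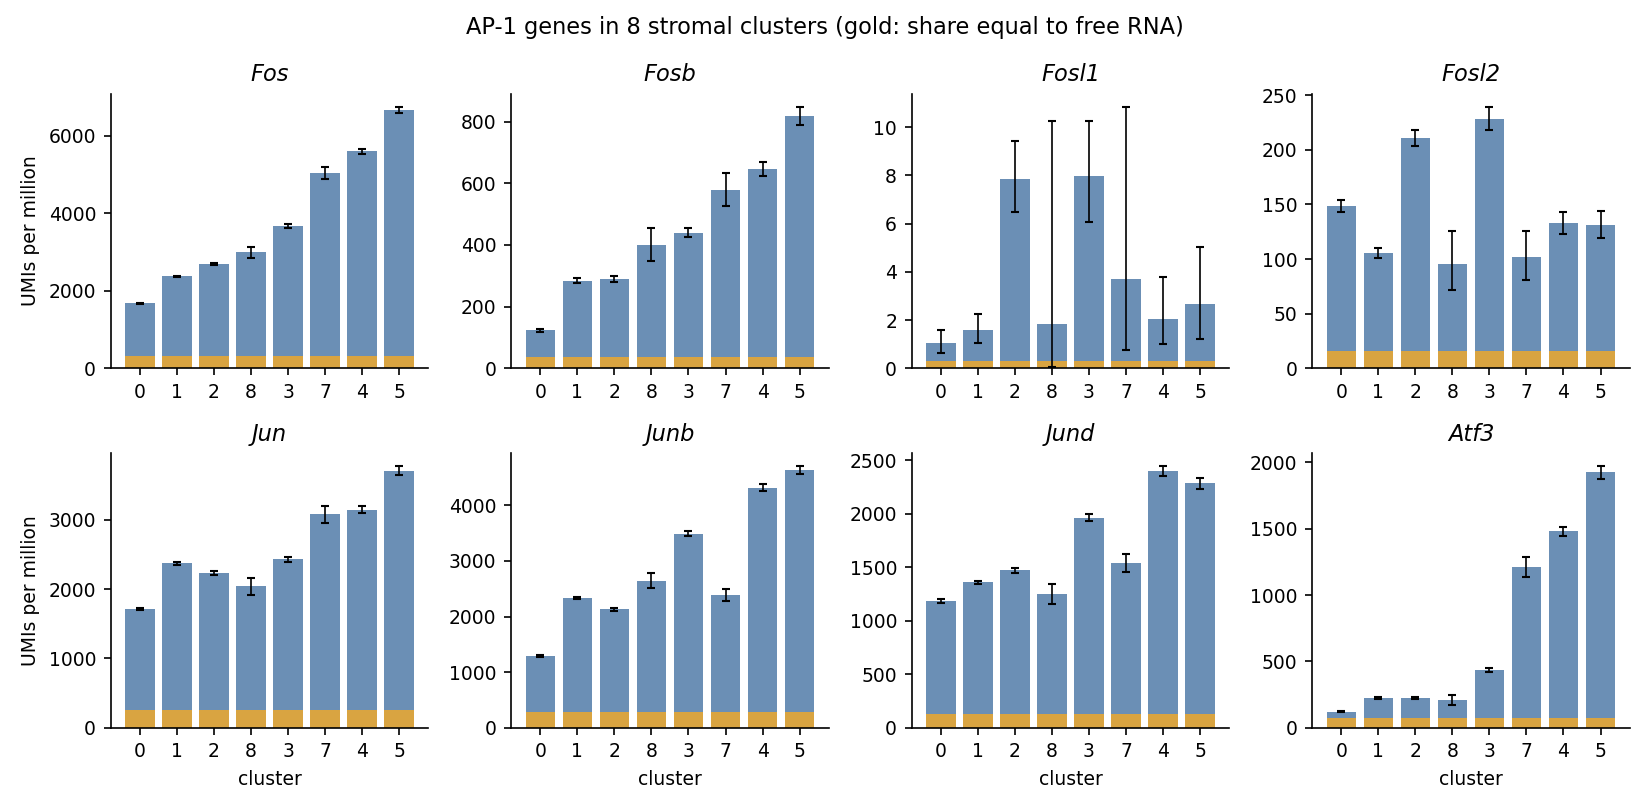
Level of each AP-1 gene (CPM, vertical axes from 0, a scale of its own for each gene) in the 8 stromal clusters, ordered by the summed level of the 8 genes. Bars are pooled levels with 95% Poisson intervals for counting error, and the gold part is what free RNA alone would give. *Atf3* rises from 121 to 1924 CPM between clusters 0 and 5, while *Fosl2* and *Fosl1* are highest in clusters 2 and 3.

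Each cluster was then set against the other stromal clusters pooled, calling a gene at 2-fold or more among genes with at least 20 CPM on either side; *Fosl1* fell below that level, so 7 members were tested. In cluster 5, *Fos* (2.51-fold), *Fosb* (2.85-fold), *Junb* (2.04-fold) and *Atf3* (5.99-fold) were higher, 4 of 7, where 5.05% of 6181 genes were. In cluster 4, *Fos* (2.12-fold), *Fosb* (2.25-fold) and *Atf3* (4.64-fold) were higher, 3 of 7 against 3.08% of genes. In cluster 7, *Atf3* alone was (3.10-fold), 1 of 7 against 11.1%. *Fosb*, *Junb* and *Atf3* were lower in cluster 0, 3 of 7 against 3.87%, at 0.322, 0.464 and 0.241 of the level elsewhere, and *Atf3* was lower in cluster 1 (0.481), 1 of 7 against 2.03%. *Jun*, *Jund* and *Fosl2* were called in no cluster. No member was called in cluster 2 (1.4% of genes higher and 1.84% lower), cluster 3 (7.24% and 5.9%) or cluster 8 (5.32% and 4.91%). None was higher in cluster 0 (0.462%) or cluster 1 (1.24%), and none lower in cluster 4 (5.07%), cluster 5 (6.55%) or cluster 7 (10.4%).

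The mixture of subunits also differed between clusters, though not in the order of the total. Dimers need a Jun protein, and Jun family UMIs outnumbered Fos family UMIs in every stromal cluster. The ratio of Fos family to Jun family was 0.464 in cluster 0, 0.455 in cluster 1, 0.547 in cluster 2 and 0.551 in cluster 3. It was higher in cluster 8 (0.587), cluster 4 (0.646), cluster 5 (0.717) and cluster 7 (0.817). *Atf3* gave 1.93% of the AP-1 UMIs of cluster 0, 8.35% in cluster 4 and 9.55% in cluster 5, while the share of *Jund* was 13.5% in cluster 4 and 11.3% in cluster 5. *Fosl2* went from 2.37% in cluster 0 to 0.649% in cluster 5. These are ratios of RNA and not of protein.

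Several other measures moved with the clusters. Of the other immediate early genes, 20 of the 36 tested were at least 2-fold higher in cluster 5 and 4 at least 2-fold lower, with a median of 2.29-fold against 0.886 over all genes. Their summed level was 28127 CPM in cluster 5, 25553 in cluster 4 and 9293 in cluster 0. Heat shock genes, which respond to protein damage, differed less: 2 of 15 were higher in cluster 5, the median was 1.17-fold, and the sums were 6765, 6116 and 4634 CPM. Their most abundant members went different ways, since *Hspa5*, a chaperone of the endoplasmic reticulum, had 2298 CPM in cluster 5 and 683 in cluster 0, *Hspa1a*, the classic inducible chaperone, 520 and 1081, and *Hsp90ab1* 892 and 939. The part of digestion stress in the AP-1 levels was not tested.

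Depth and mitochondrial share did not run parallel to the AP-1 level of the clusters. The median depth was 5555 UMIs in cluster 0, 5122 in cluster 4 and 6965.5 in cluster 5, and the median mitochondrial share was 1.35%, 1.36% and 1.11%. With stromal cells cut into 4 equal groups by mitochondrial share, the AP-1 level was 10839 CPM in the lowest group and 8435 in the highest. *Fosl2* had 149.5 CPM in the lowest and 166 in the highest. Markers of most other cell types were low in clusters 4 and 5: of 9 T and innate lymphoid markers 8 were at 0, 10 epithelial markers summed to 8.23 CPM or less, and 9 macrophage, monocyte and dendritic cell markers to 81.3 and 34.7 CPM. The 6 B and plasma cell markers summed to 81.5 and 61.8 CPM, against 159 in cluster 0. Cluster 5 was above cluster 0 in the 7 mesothelial markers (212 against 11.3 CPM) and the 6 markers of enteric glia and neurons (23.2 against 1.70), and their part in its AP-1 level was not tested. In the mesothelial-like cluster 7 the epithelial and macrophage lists summed to 1071 and 2282 CPM, and the part of that in its AP-1 level was not tested.

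The lists of genes on the routes that lead to AP-1 were short, so counts of calls among them say little. In cluster 5, 5.05% of all genes were 2-fold higher and 6.55% lower, and 0 calls in a short list is near that. Of the MAP kinase genes, whose products carry the signal to *Fos* and *Jun*, 0 of the 12 tested were 2-fold higher or lower in cluster 5, with a median of 0.858 against 0.886 over all genes, and *Mapk3* (145 CPM) and *Map2k2* (134) were among the most abundant in all cells. Of 8 genes for SRF, its partners and CREB factors 0 were called (median 0.937), led by *Mef2a* (53.0 CPM), *Crtc3* (46.9) and *Elk4* (31.1). Of 5 genes for turnover and restraint of AP-1 proteins 0 were called, with a median of 0.609 that is below the 0.886 of all genes, and with *Cul1* (57.6 CPM), *Cops5* (48.6) and *Cop1* (47.7) as the most abundant. In other clusters, the SRF and CREB list had 2 of 9 genes higher in cluster 3 (7.24% of all genes). It had 1 higher and 2 lower in cluster 7 (11.1% and 10.4% of all genes). The MAP kinase list had 1 of 13 higher and 1 lower in cluster 7, and the turnover list 1 of 6 lower there. These products act mostly through changes of protein, which RNA does not show.

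Other dimer-forming bZIP genes and genes known as AP-1 targets differed in both directions in cluster 5. In cluster 0 the target genes that were called went in 1 direction. Of 25 bZIP partners, 4 were higher and 2 lower in cluster 5 (median 0.949), with *Cebpd* (2392 CPM), *Cebpb* (1590) and *Atf4* (181) as the most abundant in all cells. Of 18 target genes, 7 were higher and 6 lower, with a median of 0.988. The shares of all genes in cluster 5 were 5.05% higher and 6.55% lower. In cluster 0, the cluster lowest in AP-1, 12 of 19 target genes were lower and 0 higher, with a median of 0.425 against 0.993 over all genes. Of 25 bZIP partners 1 was lower and 0 higher there, near the shares of all genes (3.87% lower and 0.462% higher). The target genes summed to 3888 CPM in cluster 0 and 13259.8 in cluster 5. The most abundant of these were *Vim* (1904 CPM), an intermediate filament gene, and the metallothionein genes *Mt1* (1390.3) and *Mt2* (610.2). A gene counted as a target here is one that AP-1 is known to bind in some cell type, and lists of this kind overlap with inflammation genes.

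Within clusters, *Fos*, *Fosb*, the Jun genes and *Atf3* varied together from cell to cell, and *Fosl2* and *Fosl1* did not vary with them. With each cell thinned to 3000 UMIs and centred on its cluster, Pearson's r over 10640 cells was 0.55 for *Fos* with *Jun*, 0.49 with *Junb*, 0.46 with *Jund*, 0.44 with *Fosb* and 0.32 with *Atf3*. It was 0.02 for *Fos* with *Fosl2* and -0.03 with *Fosl1*. *Fosl2* had r of 0.08 at most with any other member. The cells share 1 library and 1 pool of free RNA, and r between sparse genes is kept low by counting noise, so these values are a description.

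Counts of cells show the same split. Among thinned stromal cells, *Fosb* was present in 9.94% of the 1318 cells with no *Fos* UMI, 17.5% of those with 1 to 3, 34.6% with 4 to 9, 59.4% with 10 to 19 and 82.7% of the 1334 cells with 20 or more. *Atf3* went from 17.1% to 75.8% over the same groups. *Fosl2* stayed between 31.9% and 36.8%. *Fosl1* was present in few cells and showed no steady trend, at 1.52%, 0.727%, 1.03%, 1.00% and 0.375% over the same groups. Within clusters 4 and 5, *Atf3* still went from 32.1% of cells with 1 to 3 *Fos* UMIs to 95.7% of those with 20 or more. At 20 or more *Fos* UMIs, cells of clusters 4 and 5 had a mean of 7.89 *Atf3* UMIs and cells of clusters 0 to 3 a mean of 2.20, with means of 29.9 and 27.3 for *Fos* itself.

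**Figure D3:**
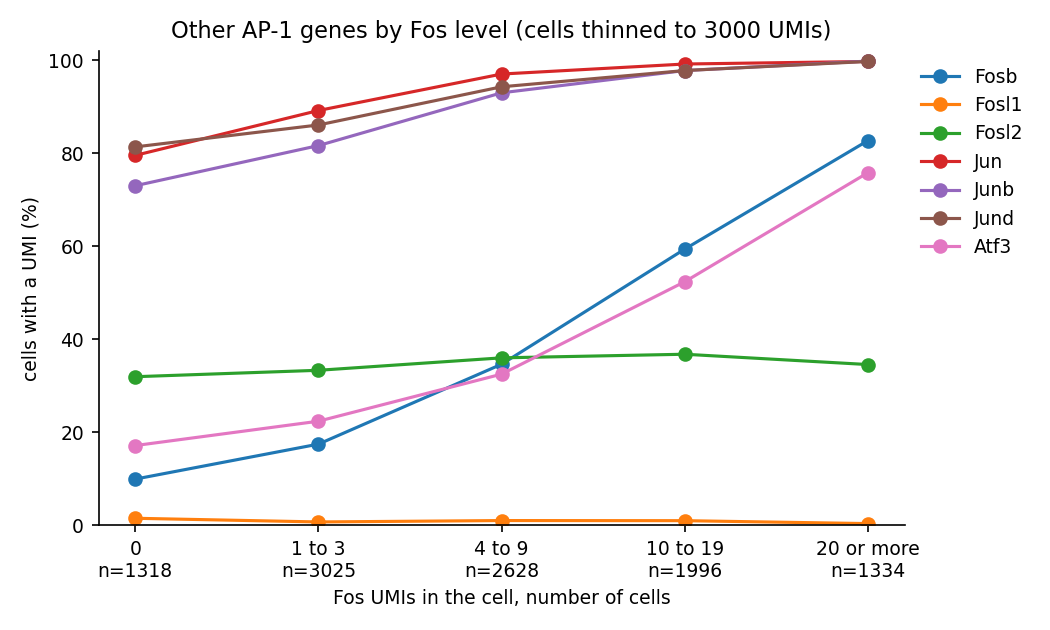
Share of stromal cells with a UMI of each other AP-1 gene (%, vertical axis) in groups of cells by their number of *Fos* UMIs (horizontal axis, with the number of cells), all thinned to 3000 UMIs. *Fosb* goes from 9.94% to 82.7% and *Atf3* from 17.1% to 75.8%, while *Fosl2* stays between 31.9% and 36.8%.

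Co-detection, the number of cells with UMIs of both genes of a pair over the number expected from each cluster's shares, was near 1 for most of the 28 pairs because the common genes are found in nearly all cells. The median ratio was 1.01. *Fosb* with *Atf3* had the highest ratio, with 3693 cells against 3173 expected (1.16, and 1.26 when thinned). *Fosl1* with *Atf3* followed at 1.14 (140 cells against 123) and *Fosl1* with *Fosl2* at 1.13 (151 against 134), but within groups of equal cluster and depth these were 1.07 and 1.05, while *Fosb* with *Atf3* stayed at 1.14. *Fos* with *Fosb* had 1.03 (1.08 when thinned).

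The genes most like the AP-1 sum from cell to cell were other immediate early genes. Over 8722 genes with a UMI in at least 5% of cells, and 11376 cells centred on their cluster, r with the summed members was 0.63 for *Egr1*, 0.58 for *Zfp36*, 0.58 for *Ier2*, 0.56 for *Btg2*, 0.50 for *Dusp1* and 0.49 for *Socs3*. *Klf4* (0.34), *Rhob* (0.33), *Klf2* (0.32), *Hes1* (0.32), *Nfkbia* (0.31), *Ppp1r15a* (0.31) and *Cebpd* (0.30) were lower. *Cyr61* (0.29), *Phlda1* (0.28), *Klf9* (0.27), *Gadd45g* (0.26) and *Tnfaip6* (0.26) were also among the 20 genes with the highest r. Of those 20, 13 were on the list of other immediate early genes and 0 on that of heat shock genes, and the median over all genes was -0.01. *Egr1* encodes a zinc finger factor, *Zfp36* a protein that marks messages for decay, and *Dusp1* a phosphatase that switches MAP kinases off.

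Taken gene by gene, *Fos* was most like *Jun* (r = 0.62) and *Atf3* most like *Fos* (0.37). *Junb* was most like *Egr1* (0.57), ahead of *Fos* (0.55). *Fosl2* was most like *Nr4a1* (0.22) and *Cebpb* (0.19), and *Fosl1* most like *Il11* (0.13), with no AP-1 gene among the 5 genes nearest to either. The values for *Fosl1* rest on its 250 UMIs.

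The chromatin at the same genes was open in all 4 sorted populations. All 8 members had a peak within 1 kb of a start in each list, where the share of protein-coding genes with one was 67.4% (MRISC), 65.1% (CD34 SP), 68.3% (CD138) and 65.1% (Myofibroblast). The score of a peak is the authors' own and its meaning is not stated, so it was used only as a rank within a list. The best-scored promoter peak of a member had a median rank of 98.7% (CD138) to 99.5% (Myofibroblast) of its list. *Fosl1* had the lowest in each, at 88.9%, 85.5%, 81.3% and 89.0%. The 32 best-scored promoter peaks included 0 of the peaks that the authors list as specific to a population. Those specific peaks share no base with a peak of another list. Since all 8 members had promoter peaks in all 4 lists, this 0 was nearly fixed in advance and says little. The share among promoter peaks of all genes was not counted.

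What differed was the width. In CD34 SP, the peak over *Fosb* ran for 13796 bp and was the widest of 143411 peaks. Those over *Jun* (10041 bp), *Fos* (9811), *Junb* (8945), *Jund* (8494), *Atf3* (7878) and *Fosl2* (7875) were also among the 20 widest. In MRISC, 6 members were touched by the 20 widest peaks: *Fosb* (11946 bp), *Jun* (9589), *Fos* (9193), *Jund* (7995), *Junb* (7358) and *Atf3* (6883). In CD138 only *Junb* (3733 bp) was, and in Myofibroblast only *Jun* (5831 bp, the widest but one). Of 21911 genes, the 20 widest peaks touched 0.105% (CD34 SP), 0.11% (MRISC), 0.119% (CD138) and 0.073% (Myofibroblast). The look at the widest peaks, and both numbers of peaks, were chosen after the data were seen. With the 100 widest peaks, the members touched were 7 in CD34 SP (0.502% of genes), 6 in MRISC (0.456%), 3 in CD138 (0.479%) and 2 in Myofibroblast (0.466%). The 20 widest of CD34 SP also lay over 9 other immediate early genes (*Btg2*, *Ccn1* (the *Cyr61* of the count matrix), *Dusp1*, *Egr1*, *Gadd45b*, *Id3*, *Nfkbia*, *Socs3* and *Zfp36*), those of MRISC over 6, of CD138 over 1 and of Myofibroblast over 2.

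In CD138 and Myofibroblast the same ground was split into separate peaks. At *Fos*, MRISC and CD34 SP had 7 and 8 peaks in the window, covering 52.3% and 60.9% of it, and CD138 and Myofibroblast 12 and 15, covering 26.2% and 35.4%. The *Fosb* window was covered for 63.1% (MRISC), 68.8% (CD34 SP), 22.2% (CD138) and 35.4% (Myofibroblast). A count of peaks therefore says little about how much of these genes was open, and the covered share is given for each. At least 10 peaks lay at 4 members for MRISC (23.6% of genes), at 5 for CD34 SP (19%), at 5 for CD138 (24.3%) and at 5 for Myofibroblast (20.9%). Peaks in MRISC and CD34 SP were wider in general, with medians of 227 and 305 bp against 174 bp in CD138 and 162 bp in Myofibroblast. Whether depth or peak calling differed between populations was not tested, since the lists hold neither reads nor libraries.

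The median covered share over the 8 members was 47.0% (MRISC), 54.7% (CD34 SP), 22.4% (CD138) and 31.3% (Myofibroblast), where that of all protein-coding genes was 4.11%, 4.02%, 3.15% and 2.67%. For each member CD34 SP had the largest share and MRISC the next. *Junb* led in CD34 SP (68.9%), CD138 (43.7%) and Myofibroblast (39.7%), and *Fosb* in MRISC. In the same order of populations *Jund* had 55.0%, 62.2%, 28.7% and 30.7%, and *Jun* 41.7%, 48.5%, 22.5% and 31.9%. *Fosl1*, with the lowest RNA level, had the smallest share in each population, at 13.3%, 21.9%, 8.21% and 10.6%. *Atf3*, whose window is the longest at 67.7 kb, had 36.4% and 42.9% in MRISC and CD34 SP but 8.92% and 10.9% in CD138 and Myofibroblast. *Fosl2* showed a like contrast, with 39.3% and 46.7% against 15.5% and 16.8%.

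**Figure D4:**
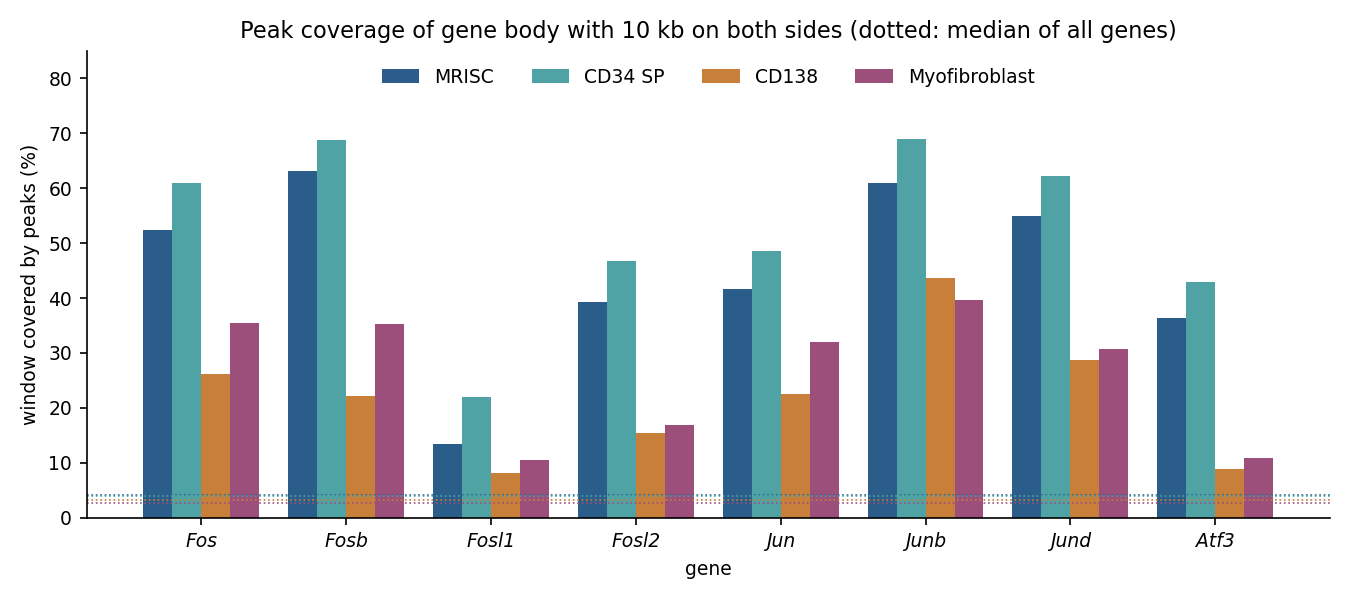
Share of each AP-1 gene's window (gene body with 10 kb on both sides) that lies under peaks (%, vertical axis), with 1 bar for the pooled list of each sorted population and dotted lines at the median of all protein-coding genes (2.67% to 4.11%). CD34 SP is highest at every gene, from 21.9% at *Fosl1* to 68.9% at *Junb*.

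**Figure D5:**
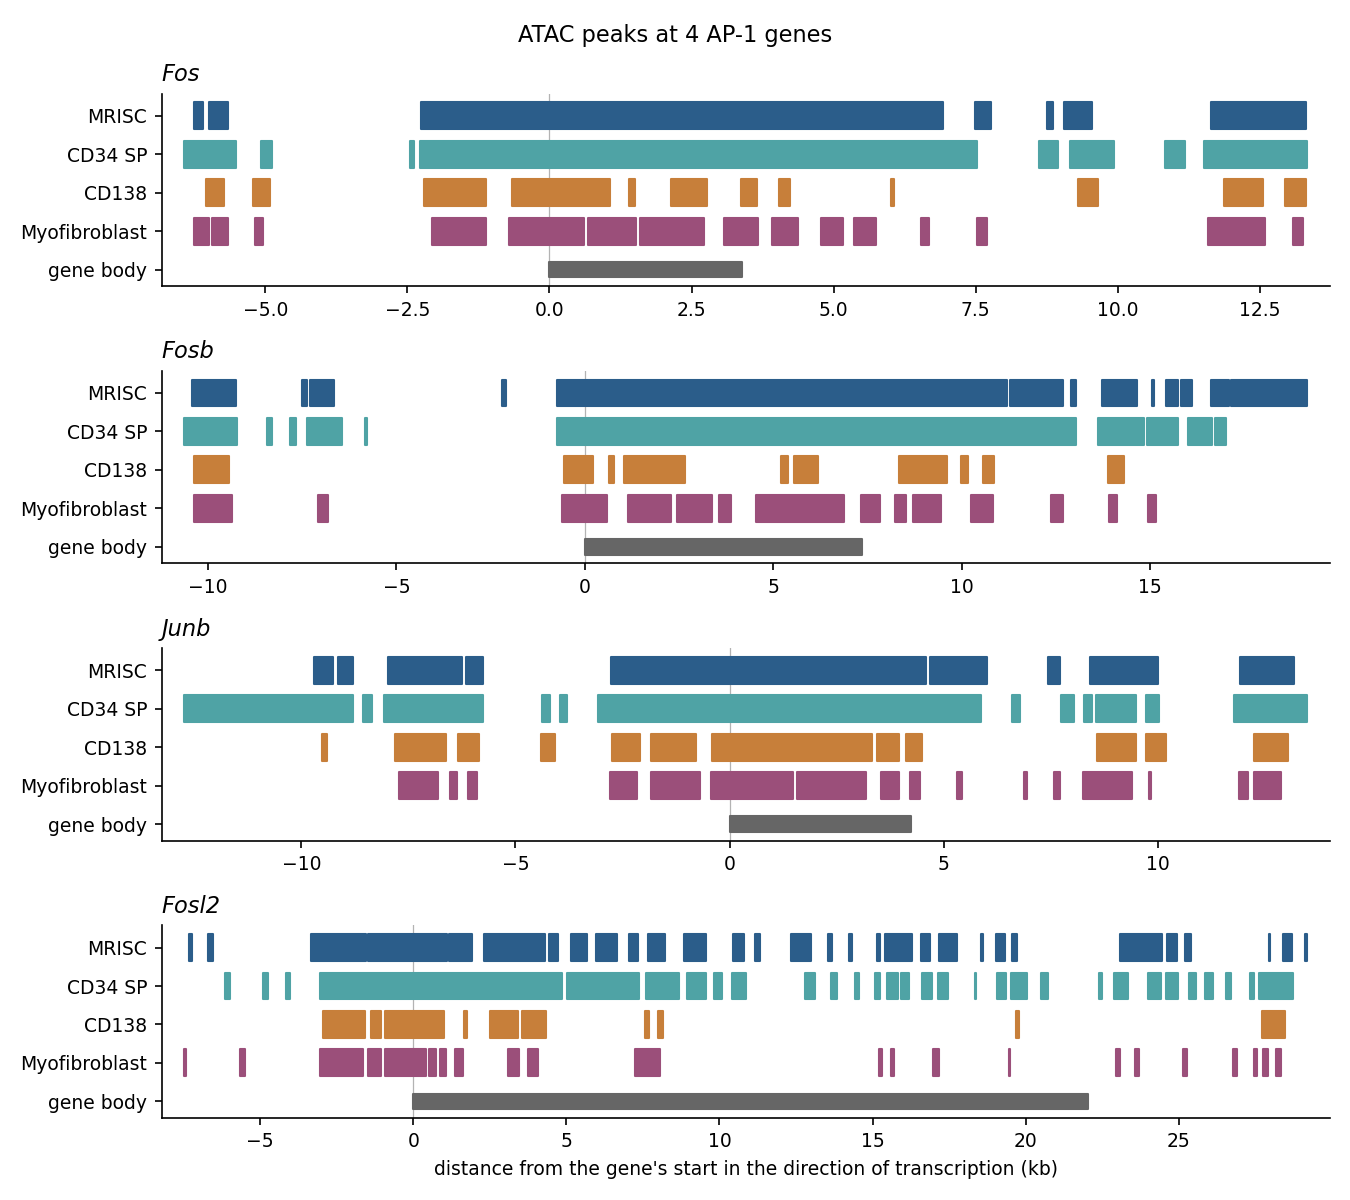
Peaks of the 4 sorted populations at *Fos*, *Fosb*, *Junb* and *Fosl2*, drawn by distance from the gene's start in kb along the direction of transcription, with the gene body in grey. In MRISC and CD34 SP 1 wide peak covers *Fos* and *Fosb* from end to end, where CD138 and Myofibroblast have separate narrower peaks, and *Fosl2* has 10 peaks in CD138 against 30 in MRISC and 30 in CD34 SP.

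Joined across populations, the peaks in the 8 windows formed 120 regions, of which 26 (21.7%) held a peak of all 4 populations, against 7.49% of 478556 regions over all chromosomes used. The share depends on what counts as the same region: when peaks had to overlap by at least 50% of both, 10 of 291 regions (3.44%) were found in all 4, since 1 wide peak then no longer joined several narrow ones. Regions in MRISC, CD34 SP and Myofibroblast but not CD138 numbered 12 (10% against 0.951% of all regions). Those in MRISC and CD34 SP alone numbered 13 (10.8% against 3.46%), and 7 of them lay at *Fosl2* and 3 at *Atf3*. Only 2 regions were found in CD138 alone, both at *Atf3*, which is 1.67% against 26.4% of all regions. The wide MRISC and CD34 SP peaks in these windows leave little room for such regions, so this share says little. *Junb* had 5 regions in all 4 populations and *Fosb* and *Fosl1* 4 each.

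Of the peaks that the authors list as specific to a population, 31 of the 97 CD34 SP peaks in the windows were specific (32.0% against 34.6% of the whole list), 14 of 105 in MRISC (13.3% against 46.6%), 12 of 110 in Myofibroblast (10.9% against 62.9%) and 2 of 75 in CD138 (2.67% against 58.4%). MRISC and CD34 SP peaks covered a median of 47.0% and 54.7% of these windows, against 4.11% and 4.02% over all genes. Peaks of other lists have little room to avoid them, so the low specific shares were partly fixed in advance and say little. Specific peaks of CD34 SP lay at 7 of the 8 members, where 62.8% of genes had at least 1. In MRISC they lay at 4 (72.7% of genes), in Myofibroblast at 6 (77.9%) and in CD138 at *Atf3* only (78.4%). *Fosl2* had 10 in CD34 SP, 6 in MRISC and 4 in Myofibroblast, each at most 268 bp wide. The windows also hold other genes, among them *Rtn2* at *Fosb*, *Ccdc85b*, *Fibp* and *Ctsw* at *Fosl1*, *Rnaseh2a* and *Prdx2* at *Junb*, *Iqcn* at *Jund* and *Fam71a* at *Atf3*. The windows of *Fos*, *Fosl2* and *Jun* held no other protein-coding gene.

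CArG boxes stood at the starts of *Fos* and *Fosb*. The box of the *Fos* upstream stretch above stands at -309 from the start and the box at *Fosb* at -257, counted in bases with minus for upstream, and both lie in peaks of all 4 populations. Within 500 bases upstream of a start, 2.71% of genes had a CArG box on either strand, and of the members *Fos* and *Fosb* did. Another box at 12224 from the *Fos* start, and boxes at -11666, -1441 and 2094 from the *Junb* start, also lay in peaks of all 4. The box in the *Fosl2* intron, at 7246 from its start, lay in peaks of MRISC, CD34 SP and Myofibroblast and in none of CD138. No CArG box was found in the peaks at *Fosl1*, *Jun* or *Atf3*, which says only that these letters are not in those peaks.

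Promoters of 7 members were matched in RefSeq (GRCm38.p6, 300 bases around the start), of which 0 had TGANTCA (7.81% of 32851 promoters do), 0 a CArG box (1.63%) and 0 TGACGTCA (1.79%). *Fos* and *Junb* had TATAAA, as 13.6% of promoters do, and in *Fos* it runs from -33 to -28 of the RefSeq start. *Jun*, *Junb* and *Atf3* had CCAAT on either strand (37.4%). The TATAAA of *Junb* and the CCAAT of *Atf3* did not lie within the 250 bases before the RefSeq start. The 250 bases before the RefSeq start of *Fos*, *Fosb*, *Jun*, *Junb* and *Atf3* lay wholly inside peaks of all 4 populations, and those of *Fosl2* inside peaks of MRISC, CD34 SP and CD138. Those of *Jund* lay wholly inside peaks of 0 populations, and its RefSeq start is not the annotated start used for the other positions given here. Among the matched members, the RefSeq start equals that annotated start only at *Fos* and *Jun*. The RefSeq start of *Atf3* lies deep inside its annotated gene body. TGACGTCA stood at -214 from the annotated *Jund* start, within peaks of all 4, and 2.22% of genes had it within 500 bases upstream.

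Whether TGANTCA was more common in these peaks than in others depended on how much of a peak was searched and on which peaks served for comparison. TGANTCA, searched on both strands, occurred in the central 200 bp of 16.2% of the 105 MRISC peaks at the members (9.72% to 24.7%), against 12.6% of all MRISC peaks. The shares were 11.3% (CD34 SP, 15.2% of the list), 8% (CD138, 9.91%) and 7.27% (Myofibroblast, 9.43%), and each interval held the share of the whole list. Searched over the whole peak, members were above their list in all 4: 26.7% (18.5% to 36.2%) against 17.5% for MRISC, 30.9% (21.9% to 41.1%) against 22.4% for CD34 SP, 18.7% (10.6% to 29.3%) against 10.8% for CD138 and 15.5% (9.27% to 23.6%) against 10.04% for Myofibroblast. Only the MRISC interval excluded the share of its list. Per kb of peak, the members had 0.389 words in MRISC (0.282 to 0.522) against 0.566 in all peaks, and 0.381 in CD34 SP (0.284 to 0.502) against 0.594. In CD138 it was 0.323 (0.185 to 0.524) against 0.501 and in Myofibroblast 0.336 (0.205 to 0.519) against 0.484. Over all peaks in the windows, MRISC and CD34 SP thus had fewer of these words per kb than their lists as a whole, while the intervals of CD138 and Myofibroblast held the value of their lists. With only C or G as N, the central 200 bp gave 12.4% (MRISC, 9.65% of the list) and 10.3% (CD34 SP, 12.0%). It gave 8% in CD138 (7.13%) and 6.36% in Myofibroblast (6.79%). CD138 was then above its list and not below it, and each interval again held the share of the whole list.

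*Atf3* had 12 TGANTCA words inside its regions, *Fosb* 11, *Junb* 10, *Fosl2* 8, *Jund* 4, *Fosl1* 3, *Fos* 2 and *Jun* 2. In the same order, 8, 7, 8, 5, 4, 3, 1 and 1 of these had C or G as N. At *Atf3*, 12 TGANTCA words were under peaks of MRISC and 12 under peaks of CD34 SP but 2 under CD138 and 3 under Myofibroblast. At *Junb* 5 of the 10 were under peaks of all 4 populations, and 3 of these form the row of TGACTCA in the *Junb* upstream stretch, at -6939, -6969 and -7033. The word in the *Fosl1* intron stands at 1308 from its start. The word in the *Atf3* intron, at chr1:191182785-191182791, stands at 35254 from the outermost annotated start. It is much nearer to the RefSeq start of *Atf3*, before which the 250 bases are chr1:191183334-191183583. The words at these *Junb*, *Fosl1* and *Atf3* positions lay under peaks of all 4 populations. Whether AP-1 proteins were bound there was not measured.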

How the data were processed

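The authors deposited the single-cell matrix as raw UMI counts; it was made with Cell Ranger on mm10, per the submitters' processing notes (software version 3.0.0 per the file header). The notes also name bcl2fastq and Seurat for this library. The ATAC-seq peak lists hold a score per peak as deposited by the authors; the notes name bcl2fastq, bedtools and mm10, while the peak caller is not given in the sources used here, nor is what the score measures.

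Of 11484 barcodes, 11376 passed a minimum of 500 genes and a ceiling of 10% mitochondrial UMIs. The doublet caller marked 0 barcodes against an expected 9.2%, so it did not work here and no doublets were removed. Cells were clustered with scanpy 1.11.5 and leidenalg 0.10.2 at resolution 0.5 on variable genes without AP-1, other immediate early and heat shock genes. The correlations between members, the groups by *Fos* level and the values called thinned used cells thinned to 3000 UMIs, which left out 736 shallower cells. Other shares of cells were taken at full depth, so depth was not made equal for them. Free RNA was read from 546978 droplets with at most 100 UMIs. Peaks sharing at least 1 bp were joined with custom interval code, and assigned with GENCODE vM21 on GRCm38. That code was checked against bedtools 2.31.1 on simulated intervals. Sequences came from the GRCm38 genome and RefSeq promoters. The overlap, co-detection and correlation steps were tested on simulated data.

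The members and gene lists were chosen with earlier results of these data known. All members were named, with the 3 most abundant genes of other lists and the 20 genes most like the AP-1 sum, except for some that are not reported here. Other genes named, those under the widest peaks or in the windows, were chosen after their values were seen.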

Additional observations from a re-analysis of the deposited data

How the results depend on the processing

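Under the alternatives, 33 recomputed summary values stayed within their limit and 22 moved. The summed AP-1 level was 9666 CPM with cells thinned and 9615 with free RNA subtracted, and the share of cells with at least 5 members was 57.9% when thinned. The ratio between clusters was 2.73 with all variable genes, 3.72 at a Leiden resolution of 1.0 and 3.10 when thinned. With 50 kb on both sides the windows held 291 (MRISC), 270 (CD34 SP), 222 (CD138) and 249 (Myofibroblast) peaks. With each peak given to the nearest start these were 166, 160, 167 and 181, and above the median score CD34 SP had 54. Regions in all 4 populations were 3.44% with overlap of 50% of both peaks and 33.3% above the median score. TGANTCA anywhere in a peak gave 26.7%, 30.9%, 18.7% and 15.5% of peaks, and 16.4% in the central 400 bp in Myofibroblast. Against the share of the whole list, the members' share turned from lower to higher with the whole peak in CD34 SP, CD138 and Myofibroblast, and with the central 400 bp in Myofibroblast (15.7% of its list). *Fosl1* gave no thinned ratio between clusters because a cluster was at 0, and its ratio was 26.1 at resolution 1.0. No paired analysis was possible because each ATAC-seq population has 1 list for both libraries and the single-cell group has 1 library. Single-cell depth limits *Fosl1* most, and free RNA limits *Atf3* in low clusters.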
